A study of Drosophila melanogaster with 16 samples.

Results

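The RNA interference experiment in Drosophila Schneider 2 (S2) cells was run on 3 different days, and the 6 libraries it gave were regrouped here by day, with the dsRNA as a covariate, to ask how far the cultures differed from one day to the next. On each day 1 batch of cells received imp dsRNA, against the fly gene Imp, which encodes a conserved RNA-binding protein, and another received luciferase dsRNA, against a firefly gene that flies lack. The replicate number in the sample labels (1, 2 or 3) was taken as the number of the day, so each day held 2 of the 6 libraries, which are 6 of the 16 samples of the series. A bulk library cannot tell fewer cells of a type from less RNA per cell, and this holds for each value that follows. All cells were given 40 µg/ml dsRNA with daily boosts, so every library, controls included, came from cells exposed to dsRNA. Cells were harvested on the third day of treatment, and poly(A) RNA was sequenced with an adapter that carried a random barcode of 7 bases. The labels give the days no dates and no order in time, and a day stands for the state of the culture, the RNA preparation and the library preparation together, which cannot be told apart. The 2 libraries of a day received different dsRNA, and nothing states whether they came from 1 flask. The supplementary methods name 2 imp dsRNA fragments for this experiment, and nothing states which of them, or both, each day received.

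S2 cells were derived from late embryos and resemble hemocytes, the blood cells of the fly. Hemocytes take up microbes and dying cells through scavenger receptors and receptors of the Nimrod family, lay down basement membrane, and carry the Toll and JAK/STAT pathways. In the Toll pathway serine proteases outside the cell cleave Spätzle, which then binds the receptor Toll. In the JAK/STAT pathway cytokines of the Unpaired family act through the receptor Domeless, and the Turandot genes, which encode secreted stress peptides, are among its targets in the fly.

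Library totals ran from 1081882 to 5463535 counts. The 2 libraries of day 1 held 5463535 (imp) and 2865083 (luciferase) counts and were the deepest, so depth moved with day 1. Imp itself, the target of the dsRNA, had 233, 324 and 455 CPM (counts scaled to a common library size with TMM factors) in the imp libraries of days 1, 2 and 3, against 659, 737 and 813 CPM in the luciferase libraries. All 3 imp libraries were below all 3 luciferase libraries, as their labels say, and the day test did not call Imp (adjusted p = 0.299). Its day 3 contrast was called only without the luciferase library of day 3 (adjusted p = 0.00912). Of 8 hemocyte markers, 7 passed the filter on low counts, with summed levels of 749 to 1131 CPM per library, while NimC1 had at most 1 count in a library. Most of this sum was the gene srp, at 479 to 836 CPM per library. The marker crq had 131 to 196 CPM and Pxn 37.9 to 122 CPM, whereas Hml had 2.92 to 9.03 CPM and He 5.08 to 17.2 CPM. Markers of other cell types were lower in sum: 10.9 to 27.4 CPM for muscle, 0.402 to 2.18 CPM for fat body and 1.8 to 4.37 CPM for the somatic cells of the ovary, with the muscle genes TpnC73F and TpnC41C and the fat body gene Adh at 0 counts in all 6 libraries. Germline markers summed to 82.1 to 101 CPM, and gut markers, almost wholly Myo31DF, to between 132 and 219 CPM.

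Of the terms in the design, the day took up the largest share of the spread among the 6 libraries. Over the 6634 genes that passed the filter, the day took up 60.7% of the sum of squares of log2 CPM on 2 degrees of freedom, the dsRNA 12.2% on 1 and the residual 27.1% on 2. Per degree of freedom the mean square was 0.219 for the day, 0.0882 for the dsRNA and 0.0978 for the residual. The common biological coefficient of variation was 0.157 with the day in the design and 0.216 without it. In a principal component analysis the first component, with 42.7% of the variance, put both day 1 libraries at the low end (-13.7 for imp and -31.7 for luciferase), both day 3 libraries at the high end (16.1 and 23.3) and the day 2 libraries between (7.25 and -1.22).

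**Figure D1:**
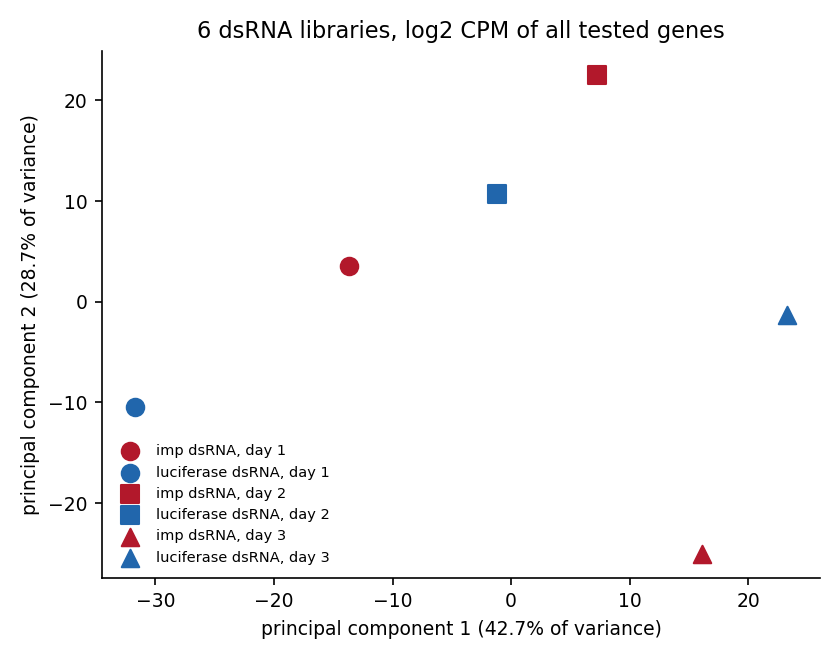
The 6 libraries on the first and second principal components of log2 CPM over 6634 genes. Red marks imp dsRNA, blue luciferase dsRNA, and circles, squares and triangles are days 1, 2 and 3. On the first component (42.7% of the variance) the day 1 libraries sit at -13.7 and below, the day 3 libraries at 16.1 and above and the day 2 libraries between.

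Across all genes, edgeR's quasi-likelihood test of any difference between the 3 days called 221 of 6634 genes (3.33%) at a Benjamini-Hochberg adjusted p under 0.05. Since the residual had 2 degrees of freedom, an interaction of day with dsRNA could not be tested, and the p-values measure the spread between the 2 libraries of a day once an average dsRNA effect is removed. Day 3 stood apart from days 1 and 2 at 228 genes (3.44%), of which 179 were higher (2.7% of genes tested) and 49 lower (0.739%). Day 1 stood apart from days 2 and 3 at 176 genes (2.65%), of which 40 were higher (0.603%) and 136 lower (2.05%). Day 2 against days 1 and 3 gave 0 calls with edgeR, with 555 genes at an unadjusted p under 0.05, 0 calls with limma-voom and 2 with DESeq2. The 3 contrasts use the same 6 libraries and are not independent of each other. The mean that day 1 was set against includes day 3, so the 2 lists share genes. Of the 136 genes lower on day 1, 88 (64.7%) were also called higher on day 3, against 2.7% of all genes. Of the 40 higher on day 1, 22 (55%) were also called lower on day 3, against 0.739% of all genes. Single libraries moved these counts. The count of 221 became 460 without the imp library of day 1, 1346 without the imp library of day 3, 145 without the luciferase library of day 1 and 1160 without the luciferase library of day 3. For day 3 against the other days the count of 228 became 635 and 418 without the imp and the luciferase library of day 3. For day 1 it became 445, 117 and 1598 without the imp libraries of days 1, 2 and 3, and 43 and 431 without the luciferase libraries of days 1 and 3. For day 2 it became 68 and 44 without the imp libraries of days 1 and 3, 1 without the luciferase library of day 1 or of day 2, and 865 without that of day 3.

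**Figure D2:**
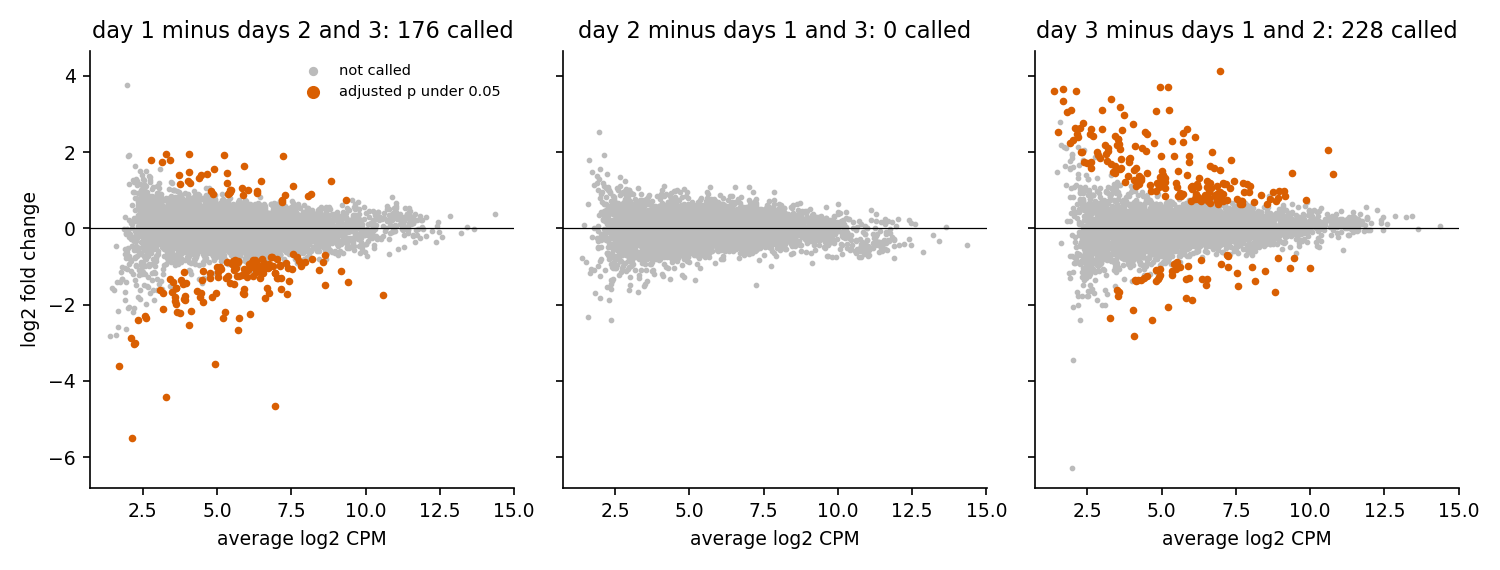
Each point is a gene, with its average log2 CPM on the x axis and, on the y axis, the log2 fold change of 1 day minus the mean of the other days. Orange points passed an adjusted p of 0.05: 176 genes for day 1, mostly lower, 0 for day 2, and 228 for day 3, mostly higher.

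The gene with the largest day 3 difference by the selection rule was TotM, which encodes the secreted stress peptide Turandot M. TotM had 7.21, 61.4 and 374 CPM in the imp libraries of days 1, 2 and 3 and 3.27, 57.4 and 271 CPM in the luciferase libraries. The ranges of the 3 days did not overlap, and in either arm the day 3 library was more than 4 times as high as the day 2 library. Its log2 difference was 4.13 ± 0.19 (SE) for day 3 against days 1 and 2 (adjusted p = 7e-08) and 3.47 ± 0.28 for day 2 against day 1 (adjusted p = 8.1e-05). JAK/STAT components and targets had 3 of 11 tested members called by the joint test (27.3%, against 3.33% of all genes), all 3 higher on day 3. The cytokine gene upd3 had 10.6, 11.7 and 40.8 CPM in the imp libraries of days 1, 2 and 3 and 9.8, 10 and 22.3 CPM in the luciferase libraries, and was high on day 3 alone (log2 1.53 ± 0.27, adjusted p = 0.005). Socs36E, a negative regulator of the pathway, had 188, 210 and 303 CPM in the imp libraries and 131, 224 and 423 CPM in the luciferase libraries (log2 0.96 ± 0.20 for day 3, adjusted p = 0.013, and 0.58 with an adjusted p of 0.0436 without the luciferase library of day 3). The receptor gene dome (log2 0.29 for day 3) and the transcription factor gene Stat92E (0.07) did not pass the test, with joint adjusted p of 0.501 and 0.618. The median log2 difference of the 11 members was 0.292 on day 3, against -0.000536 for all genes.

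Genes of the Toll pathway, a list put together after values had been seen, had 4 of 16 tested members called by the joint test (25%, against 3.33% of all genes). All 4 were higher on day 3, as 2.7% of all genes were. With members picked after values were known, these shares are a description and cannot show enrichment. The ligand gene spz had 407, 673 and 1135 CPM in the imp libraries of days 1, 2 and 3 and 226, 492 and 1124 CPM in the luciferase libraries, with no overlap between days (log2 1.44 ± 0.20 for day 3, adjusted p = 0.00079). The receptor gene Tl had 19.1, 25.3 and 76.1 CPM in the imp libraries and 15.6, 22.9 and 43.7 CPM in the luciferase libraries (log2 1.5 ± 0.22, adjusted p = 0.0013). Both day 3 libraries lay above the other 4 at both genes. The protease gene snk, whose product acts upstream of Spätzle in the embryo, was near the limit of detection, with 4, 1 and 13 counts in the imp libraries and 0, 2 and 14 counts in the luciferase libraries (log2 3.66 ± 0.62, adjusted p = 0.0039). The adaptor gene Myd88 had 95.2, 118 and 149 CPM in the imp libraries and 71.5, 97.6 and 169 CPM in the luciferase libraries (log2 0.76 ± 0.18, adjusted p = 0.03). The call of Myd88 was lost without the imp library of day 2 or any 1 of the 3 luciferase libraries, with an adjusted p of 0.322 without that of day 2 and a log2 difference of 0.48 without that of day 3. The other 12 tested members did not pass the joint test, among them the kinase gene pll (log2 -0.08 for day 3), tub (-0.05) and the inhibitor gene cact (-0.01). A list of antimicrobial peptide genes and other Imd and Toll genes had 18 tested members, and none was called. It held pathway components such as dl, Dif, Rel, PGRP-LC and cact beside outputs. CecA1, for example, had 49.6, 47 and 51.8 CPM in the imp libraries and 66.4, 41.8 and 46.6 CPM in the luciferase libraries. Drs, Mtk, Def, Dpt, AttC and AttD did not pass the filter on low counts and were not tested. Drs had 2 to 8 counts per library. At an unadjusted joint p under 0.05 there were 4 of the 18 with edgeR, which were dl, Dif, pirk and PGRP-LC, and neither limma-voom nor DESeq2 called any (0 each).

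Spn88Eb, a serpin gene, had 8.12, 10.8 and 130 CPM in the imp libraries of days 1, 2 and 3 and 4.36, 8.43 and 78.2 CPM in the luciferase libraries. It was high on day 3 alone, with a log2 difference of 3.70 ± 0.21 (adjusted p = 5.2e-07), and was the only serpin called among 8 tested (a list put together after values had been seen). Some of the day 3 genes lay side by side in the BDGP6 annotation. CG33460, CG33461 and CG33462 form a run of neighbours on chromosome arm 2R, and CG11668 and snk are neighbours on 3R. CG33462 had 16.6, 35.2 and 147 CPM in the imp libraries and 8.71, 33.3 and 94.7 CPM in the luciferase libraries (log2 2.49 ± 0.20 for day 3, adjusted p = 9.9e-06). CG33460 differed by 2.61 ± 0.19 (adjusted p = 3.7e-06). CG33461 differed by 3.11 ± 0.39 (adjusted p = 0.00035) on 1 to 12 counts per library outside day 3, and CG11668 by 3.61 ± 0.70 (adjusted p = 0.0096) on 0 to 3 counts outside day 3, a difference that was 5.55 without the luciferase library of day 2. These neighbours were chosen after their values had been seen.

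Receptors by which hemocytes take up particles moved in both directions. Of 14 tested hemocyte markers 3 were called by the joint test (21.4%, against 3.33% of all genes), 2 of them higher on day 3 and 1 lower. Sr-CI, a scavenger receptor that binds bacteria, had 4.15, 21.7 and 112 CPM in the imp libraries of days 1, 2 and 3 and 1.82, 8.43 and 58.3 CPM in the luciferase libraries. No day overlapped another, and the log2 difference was 3.70 ± 0.23 for day 3 against the other days (adjusted p = 8.4e-07) and -3.55 ± 0.30 for day 1 (adjusted p = 5.5e-05). The phagocytic receptor gene eater had 6.49, 6.32 and 29.8 CPM in the imp libraries and 6.17, 3.21 and 19.4 CPM in the luciferase libraries, high on day 3 alone (log2 2.20 ± 0.31, adjusted p = 0.0012). In contrast, nimC4, a receptor for apoptotic cells, had 90.2, 85.8 and 21.2 CPM in the imp libraries and 82.4, 76.7 and 23.8 CPM in the luciferase libraries, low on day 3 alone (log2 -1.88 ± 0.22, adjusted p = 0.00018). In BDGP6, nimC4 overlaps nAChRalpha5 on the same strand, so its counts are less certain. The GATA factor gene srp (log2 0.16 for day 3), the scavenger receptor gene crq (0.24) and Hml (-1.15), all markers of the lineage, were not called, with joint adjusted p of 0.415, 0.609 and 0.416. The prophenoloxidase gene proPO-A1, noticed after values had been seen, had 12.8, 9.94 and 3.92 CPM in the imp libraries and 14.9, 12.9 and 4.37 CPM in the luciferase libraries (log2 -1.60 ± 0.39 for day 3, adjusted p = 0.039). This call rested on 5 to 9 counts per day 3 library and was lost without the imp library of day 1 or any 1 of the 3 luciferase libraries, with an adjusted p of 0.172 without that of day 2.

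**Figure D3:**
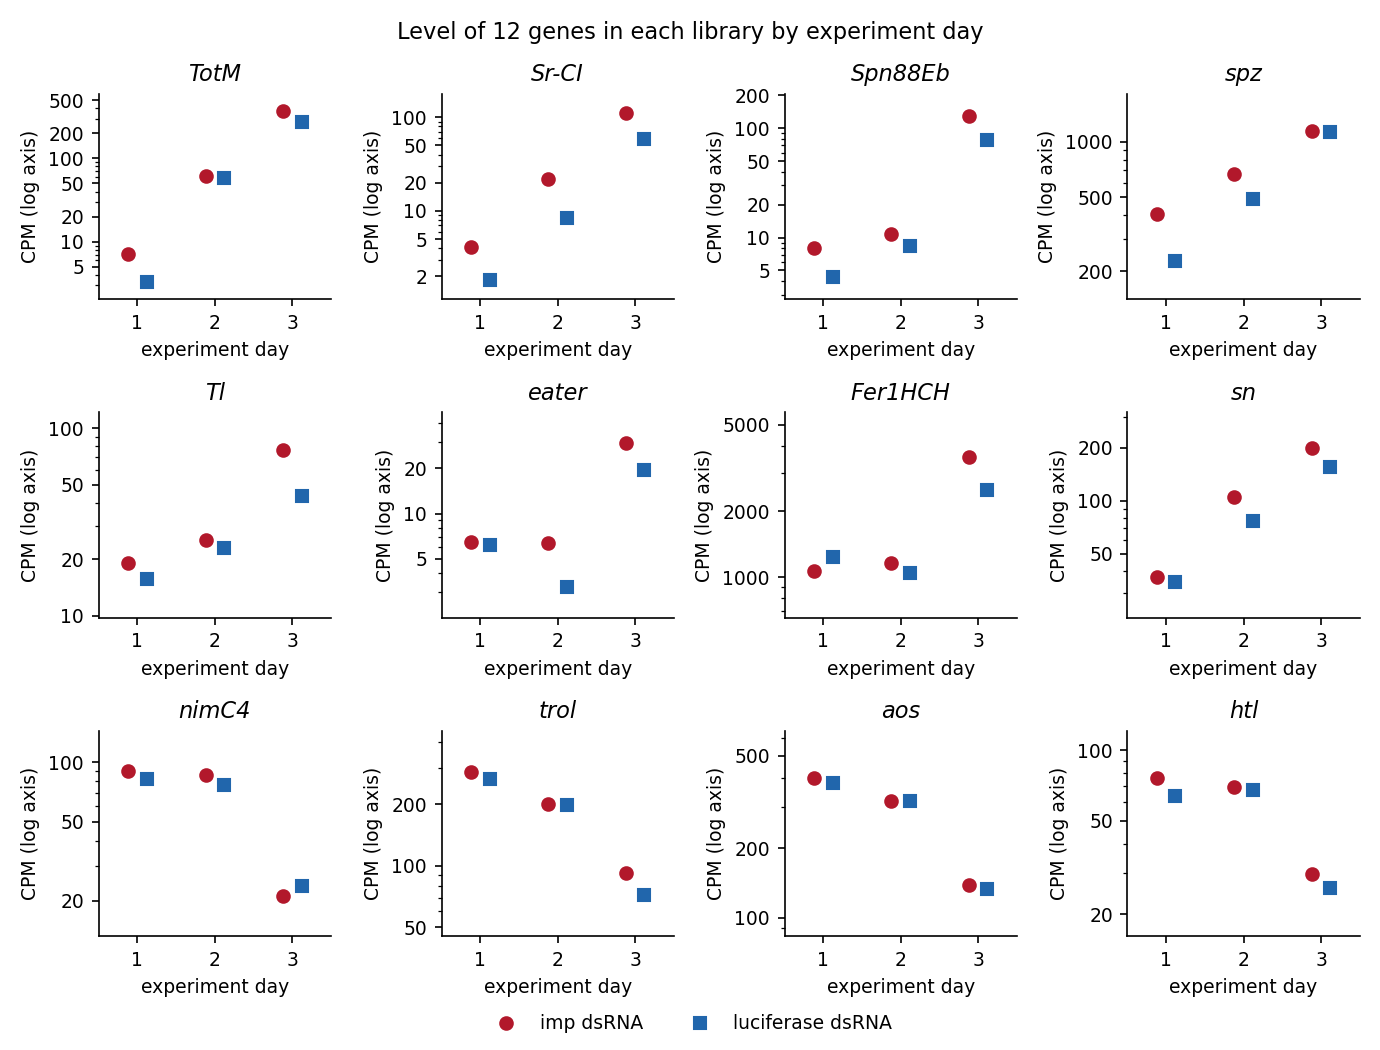
CPM (log axis, a separate scale for each gene) of 12 genes in the imp (red circle) and luciferase (blue square) library of each experiment day. In the first 8 panels both day 3 libraries lie above the other 4, from TotM (374 and 271 CPM) to sn (200 and 156 CPM), and in the last 4, nimC4, trol, aos and htl, both lie below them.

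Among genes of metal handling, 2 of 11 tested members were called by the joint test (18.2%, against 3.33% of all genes) and 3 by the day 3 contrast, all higher, as 2.7% of all genes were. Fer1HCH, the ferritin heavy chain that stores iron, had 1062, 1163 and 3570 CPM in the imp libraries of days 1, 2 and 3 and 1230, 1040 and 2505 CPM in the luciferase libraries. Days 1 and 2 overlapped, and day 3 lay above both (log2 1.42 ± 0.21, adjusted p = 0.0017). The light chain gene Fer2LCH had 7.03, 9.94 and 21.2 CPM in the imp libraries and 10.2, 10 and 9.23 CPM in the luciferase libraries and did not pass the test (log2 0.64 ± 0.38). The metallothionein gene MtnA differed by 0.97 ± 0.22 (adjusted p = 0.026) and the transferrin gene Tsf1 by 1.75 ± 0.44 (adjusted p = 0.047). Tsf1 was near the limit of detection, with 3 to 18 counts per library. The call of MtnA was lost without any 1 of the 3 imp libraries or the luciferase library of day 2, with an adjusted p of 0.0891 without the imp library of day 2 and a log2 difference of 0.51 without that of day 3. The call of Tsf1 was lost without any 1 of the libraries other than the luciferase library of day 3, with an adjusted p of 0.205 without the imp library of day 3. Of 19 antioxidant genes the joint test called 0 in edgeR (5 at an unadjusted p under 0.05), limma-voom and DESeq2, and 2 were higher in the day 3 contrast, the catalase gene Cat (log2 0.86 ± 0.19, adjusted p = 0.026) and GstD5 (1.12 ± 0.27, adjusted p = 0.038). Both calls rested on single imp libraries. That of Cat was lost without the imp library of day 2 (adjusted p = 0.16) and without that of day 3 (adjusted p = 0.157, with a log2 difference of 0.448), and the day 3 difference within the arms was 1.23 in the imp and 0.449 in the luciferase arm. That of GstD5 was lost without any 1 of the 3 imp libraries, with an adjusted p of 0.173 without that of day 3. Men, which encodes malic enzyme, a source of NADPH for lipid synthesis, had 179, 181 and 397 CPM in the imp libraries and 163, 143 and 341 CPM in the luciferase libraries (log2 1.15 ± 0.16 for day 3, adjusted p = 0.00082). It was the only 1 of 18 tested genes of lipid synthesis that the joint test called. Npc2a, a sterol carrier gene of that list, was lower on day 3 (log2 -0.88 ± 0.22, adjusted p = 0.042), a call lost without any 1 of the 3 luciferase libraries or the imp library of day 2 (adjusted p = 0.214 without the last).

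Further genes named by the rule as highest on day 3 included nAcRalpha-30D, a nicotinic acetylcholine receptor subunit, with 0.721, 16.3 and 30.6 CPM in the imp libraries of days 1, 2 and 3 and 0.726, 3.61 and 18.9 CPM in the luciferase libraries (log2 3.38 ± 0.40, adjusted p = 0.00024). The day 1 values of nAcRalpha-30D stood on 4 and 2 counts. The pherokine gene Phk-3 (log2 3.18 ± 0.35), CG4793 (3.11 ± 0.25), hoe1 (3.08 ± 0.23) and the homeobox gene vis (2.97 ± 0.29) completed the set, all with both day 3 libraries above the other 4. The counts of hoe1 are less certain, since a jockey element overlaps it on the same strand. The fascin gene sn, which encodes a protein that bundles actin filaments, had 37, 106 and 200 CPM in the imp libraries and 34.5, 76.7 and 156 CPM in the luciferase libraries (log2 1.65 ± 0.17 for day 3, adjusted p = 7.5e-05). The endocytic receptor gene mgl had 77.7, 152 and 411 CPM in the imp libraries and 43.9, 101 and 210 CPM in the luciferase libraries (log2 1.79 ± 0.16, adjusted p = 2.4e-05). Msr-110, at 680, 1091 and 2992 CPM in the imp libraries and 405, 968 and 3158 CPM in the luciferase libraries, was among the most abundant genes called (log2 2.07 ± 0.22, adjusted p = 8e-05). The genes sn, mgl and Msr-110 were chosen after their values had been seen, and mgl and Msr-110 each overlap another annotated transcript on the same strand. Of the actin cytoskeleton list, 0 of 25 tested genes were called by the joint test in edgeR, with 2 at an unadjusted p under 0.05, and limma-voom and DESeq2 called 1 each. With 3.33% of all genes called, a list of this length near that share would also hold few calls or none. The cytoplasmic actin gene Act5C differed by -0.02 ± 0.29 on day 3.

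Genes that were lower on day 3 included several that encode matrix, signalling and mesodermal proteins. The gene trol, which encodes perlecan of the basement membrane, had 286, 200 and 92.5 CPM in the imp libraries of days 1, 2 and 3 and 267, 197 and 72.4 CPM in the luciferase libraries (log2 -1.52 ± 0.18 for day 3, adjusted p = 0.00026). It was the only 1 of 20 tested basement membrane and integrin genes called by the joint test, and the collagen IV genes vkg (log2 0.25 for day 3) and Cg25C (0.37) were not called. Mmp1, which encodes a matrix metalloprotease and was the only 1 of 15 tested JNK components and targets called jointly, had 477, 438 and 178 CPM in the imp libraries and 377, 450 and 222 CPM in the luciferase libraries (log2 -1.12 ± 0.19, adjusted p = 0.0039). The secreted EGF receptor inhibitor gene aos had 402, 321 and 139 CPM in the imp libraries and 382, 320 and 133 CPM in the luciferase libraries (log2 -1.38 ± 0.17, adjusted p = 0.0004), and both day 3 libraries were far below the rest. It was the only 1 called of 11 tested outputs of Ras/MAPK signalling. At trol and aos the 2 libraries of each day were close to each other.

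Among mesoderm and FGF genes, again listed after values had been seen, 3 of 8 tested members were called by the joint test (37.5%, against 3.33% of all genes). The day 3 contrast called 4, all lower, as 0.739% of all genes were. Since members were picked with values known, these shares describe the list only and cannot show enrichment. The FGF receptor gene htl had 75.8, 69.6 and 29.8 CPM in the imp libraries of days 1, 2 and 3 and 63.5, 67.5 and 25.7 CPM in the luciferase libraries (log2 -1.32 ± 0.21 for day 3, adjusted p = 0.0024). The transcription factor gene twi, which specifies mesoderm in the embryo, had 256, 216 and 89.4 CPM in the imp libraries and 214, 225 and 113 CPM in the luciferase libraries (log2 -1.17 ± 0.19, adjusted p = 0.0028). The annotation has an antisense RNA at twi and further genes inside kirre. Reads there are less certain, though only reads on the strand of a gene were counted for it. The homeobox gene btn had 128, 61.4 and 46.3 CPM in the imp libraries and 144, 108 and 32.1 CPM in the luciferase libraries (log2 -1.49 ± 0.25, adjusted p = 0.004). At htl and twi days 1 and 2 overlapped and day 3 was lower, whereas at btn the imp libraries of days 2 and 3 were close. The myoblast adhesion gene kirre was the fourth (log2 -1.38 ± 0.35, adjusted p = 0.046), a call lost without the imp library of day 2 or the luciferase library of day 1 or of day 3 (adjusted p = 0.292 and log2 -0.87 without the last). Mef2, a transcription factor gene of the same lineage, did not pass the test (log2 0.27 for day 3). By the selection rule the largest decreases on day 3 were those of CG14869 (log2 -2.82 ± 0.45), corn (-2.39 ± 0.33), CG42675 (-2.34 ± 0.50), out (-2.15 ± 0.36) and CG42857 (-2.06 ± 0.32), followed by nimC4, CG42613 (-1.83 ± 0.23) and Vha68-1 (-1.76 ± 0.41). CG14869, corn, CG42675, out and Vha68-1 had 1 to 14 counts per day 3 library. Without the luciferase library of day 2 the call of CG42675 was lost (adjusted p = 0.0875), and without any 1 of the 3 luciferase libraries that of Vha68-1 (adjusted p = 0.266 without that of day 3).

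Day 1 was higher than the other days at only 40 genes. CG34330 had 220, 61.4 and 98 CPM in the imp libraries of days 1, 2 and 3 and 346, 56.6 and 92.3 CPM in the luciferase libraries (log2 1.90 ± 0.19 for day 1, adjusted p = 0.00015). Day 1 lay above the other 4 libraries, and day 2 was the lowest in either arm. CG42857 had 54.3, 26.2 and 14.1 CPM in the imp libraries and 74.4, 29.7 and 7.29 CPM in the luciferase libraries (log2 1.92 ± 0.24, adjusted p = 0.0011). The clathrin adaptor gene AP-2sigma had 43.8, 12.6 and 14.1 CPM in the imp libraries and 51.6, 26.5 and 12.1 CPM in the luciferase libraries (log2 1.57 ± 0.24, adjusted p = 0.0034), and CG11671 differed by 1.63 ± 0.23 (adjusted p = 0.002). The remaining 4 genes that the rule named, CG42675 (log2 1.96), CG14869 (1.94), CG7794 (1.79) and grk (1.73), all lost their calls without the luciferase library of day 1, with adjusted p of 0.235, 0.211, 0.41 and 0.405, and grk also without the imp library of day 1. The mitochondrial ribosomal protein gene mRpL48 (log2 0.96 ± 0.20, adjusted p = 0.02) was the only 1 of 72 of its class called by the joint test, and this call was lost without the same library (adjusted p = 0.499) and without the luciferase library of day 2.

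Of the 136 genes lower on day 1, the named ones other than TotM, nAcRalpha-30D, Sr-CI, CG33462 and Spn88Eb were zye, CG14419 and CG6357. The zona pellucida domain gene zye had 15.9, 60.5 and 132 CPM in the imp libraries of days 1, 2 and 3 and 6.9, 34.1 and 86 CPM in the luciferase libraries (log2 -2.66 ± 0.23 for day 1, adjusted p = 5.5e-05). CG14419 differed by -2.53 ± 0.34 (adjusted p = 0.0016) and CG6357 by -2.24 ± 0.21 (adjusted p = 9.3e-05), with both day 1 libraries below the other 4. In the starvation and FOXO list the joint test called 0 of 18 tested genes in edgeR (5 at an unadjusted p under 0.05) and 1 each in limma-voom and DESeq2. The day 1 contrast called 2 of the 18 as lower, against 2.05% of all genes, the insulin receptor gene InR (log2 -0.99 ± 0.22, adjusted p = 0.03) and scyl, an inhibitor of TOR signalling (-0.997 ± 0.22, adjusted p = 0.032). In the ecdysone list 2 of 14 were, the cell death gene rpr (-1.56 ± 0.37, adjusted p = 0.04) and vri (-1.15 ± 0.28, adjusted p = 0.043). The day 1 median of the 14 was -0.602 against 0.0291 for all genes. The day 1 call of rpr was lost without the imp library of day 2 or the luciferase library of day 1 (log2 -1.1 without the latter). Of the 14, the joint test called 1 (7.14%), which was rpr (adjusted p = 0.0123). In the imp libraries of days 1, 2 and 3 rpr had 5.41, 9.94 and 15.7 CPM. In the luciferase libraries it had 3.99, 9.24 and 31.6 CPM. The day 3 contrast called rpr as higher (log2 1.81, adjusted p = 0.0065), a call lost without the luciferase library of day 3 (log2 1.06). InR, scyl and vri lost their calls without the luciferase library of day 1, with adjusted p of 0.265, 0.602 and 0.293, as did the actin regulator gene ena (log2 -0.89 ± 0.20, adjusted p = 0.031, and 0.627 without it). All 4 also lost their calls without the imp library of day 2, vri and ena without the luciferase library of day 2, and vri without the imp library of day 1, and the log2 difference of scyl was -0.66 without the luciferase library of day 1. An lncRNA overlaps ena on the same strand.

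Markers of neurons moved with day 1. All 6 tested members had negative log2 differences on day 1, with a median of -0.898, and their summed level was 182 and 153 CPM in the imp and luciferase libraries of day 1, against 253 to 311 CPM in the other 4. Only Syx1A, a syntaxin gene that overlaps eIF4EHP on the same strand, was called (log2 -1.01 ± 0.21, adjusted p = 0.019), a call lost without the imp library of day 2 or the luciferase library of day 1 (adjusted p = 0.396 without that of day 1). The defining marker elav had 67 to 291 counts per library, whereas Cha and VGlut had at most 1 count. The part of these markers in the day 1 result was not tested.

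Exonic length moved with day 1 as well. From the quartile of shortest to that of longest exonic length in BDGP6 (a length was found for 95.4% of genes tested), the median log2 difference of day 1 against the other days was 0.235, 0.113, -0.0345 and -0.21. The numbers of genes called lower on day 1 were 11, 16, 40 and 62 in the same order, of 1581 to 1583 genes each. Genes lower on day 1 had a median exonic length of 3453 nt, those higher on day 1 1628 nt, and all genes 2173 nt. This gradient was steepest in the luciferase library of day 1, where the median departure from the mean of the 6 libraries was 0.286 in the shortest and -0.245 in the longest quartile, while in the imp library of day 1 it was 0.0143 and -0.0381. The imp library of day 2 ran the other way, with -0.145 in the shortest and 0.143 in the longest quartile, as did the luciferase library of day 3, with -0.119 and 0.125. When each library was given offsets for exonic length, an alternative added after the data were seen, the quartile medians of day 1 became 0.0237, 0.00786, -0.00552 and -0.00595, and 194 genes were called for day 1, 56 higher and 138 lower. The 138 were spread over the quartiles as 22, 19, 43 and 46 among genes with a length. The part of exonic length in the day 1 calls was not tested beyond this.

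**Figure D4:**
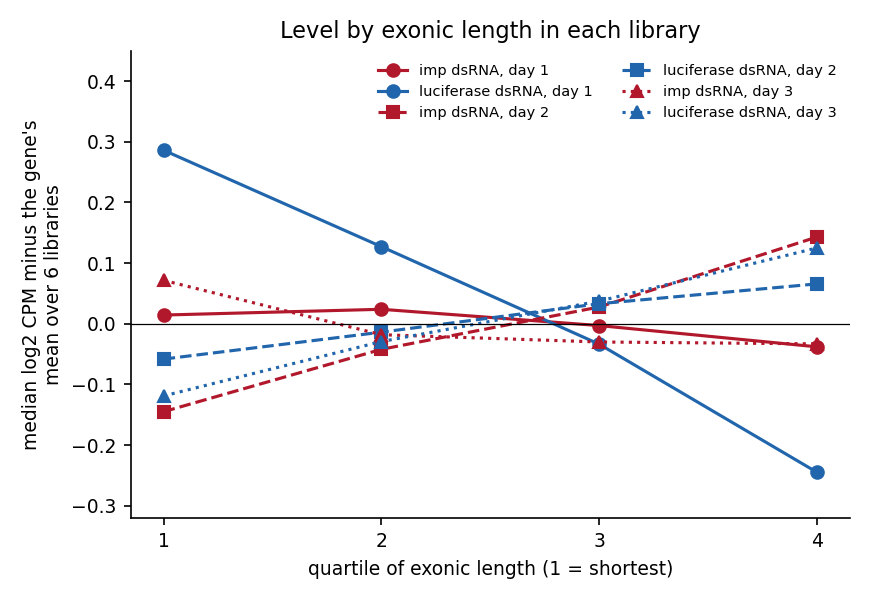
For each library, the median over genes of log2 CPM minus the gene's mean over the 6 libraries (y axis), in 4 quartiles of exonic length (x axis, 1 the shortest). Red is imp dsRNA and blue luciferase dsRNA, with circles, squares and triangles for days 1, 2 and 3. The luciferase library of day 1 runs down from 0.286 to -0.245, and the imp library of day 2 up from -0.145 to 0.143.

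Day 2 had no gene of its own at the threshold. The smallest p-values of its contrast belonged to dpr17, CG33229 and rgn, which were higher, and to CG34330, Fpps and Spn88Eb, which were lower. The immunoglobulin domain gene dpr17 had 104, 133 and 48.6 CPM in the imp libraries of days 1, 2 and 3 and 84.2, 140 and 41.8 CPM in the luciferase libraries (log2 1.08 for day 2, adjusted p = 0.098). CG34330 had a log2 difference of -1.48 for day 2, with an adjusted p of 0.074. Fpps, which encodes the farnesyl pyrophosphate synthase of the mevalonate pathway, had 220, 117 and 221 CPM in the imp libraries and 308, 139 and 271 CPM in the luciferase libraries (log2 -0.99, adjusted p = 0.15). At both genes the 2 day 2 libraries lay outside the range of the other 4. Among single alternatives, DESeq2 called CG34330 (adjusted p = 0.00028) and Fpps (adjusted p = 0.0295) for day 2. The counts of rgn and CG33229 are less certain, since lncRNAs overlap them on the same strand in BDGP6. None of the 6 was called by limma-voom. Leaving out 1 library left a day with 1 library and the fit with 1 residual degree of freedom. Calls were then gained only without a library of day 1 or day 3, and not without either library of day 2. The log2 differences for day 2 ran from 0.897 to 1.24 for dpr17, 0.849 to 1.41 for CG33229 and 0.786 to 1.2 for rgn. They ran from -1.68 to -1.25 for CG34330, -1.05 to -0.92 for Fpps and -1.58 to -1.15 for Spn88Eb.

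Compared pair by pair, day 3 differed from day 1 at 282 genes (4.25%), of which 212 were higher (3.2%) and 70 lower (1.06%). It differed from day 2 at 68 genes (1.03%), of which 51 were higher (0.769%) and 17 lower (0.256%). Day 2 differed from day 1 at 18 genes (0.271%), of which 16 were higher (0.241%) and 2 lower (0.0301%). The count of 18 became 349, 5 and 846 without the imp libraries of days 1, 2 and 3, and 3 and 847 without the luciferase libraries of days 1 and 3. The count of 282 became 1242 without the imp library of day 3 and 135 without the luciferase library of day 1. The count of 68 became 119, 29 and 176 without the imp libraries of days 1, 2 and 3, and 105, 21 and 601 without the luciferase libraries of days 1, 2 and 3. Of the 18 genes the 2 lower on day 2 were CG34330 (log2 -2.25) and Fpps (-1.04). At most genes that separated day 3 from day 1, day 2 had an intermediate level. Among the 212 genes higher on day 3 than on day 1, the mean of day 2 lay between in 187 (88.2%), against 36.1% of all genes, and the 2 libraries of each day formed separate ranges with day 2 in the middle in 116 (54.7%), against 6.26% of all genes. Among the 70 lower genes these numbers were 64 (91.4%) and 43 (61.4%). A gene chosen for a wide gap between days 1 and 3 leaves more room for day 2 inside it, so these shares are a description. On a scale where day 1 is 0 and day 3 is 1, the median position of day 2 was 0.406 for the higher and 0.366 for the lower genes.

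The same day differences were then read separately in the 2 arms, which share no library. Of genes at least 2-fold different between a pair of days in the luciferase libraries (mean CPM at least 10), 74.9% over the 6 sets differed in the same direction in the imp libraries. The sets were unequal. Of 179 genes higher on day 2 than on day 1 in the luciferase arm, 95.5% had the same direction in the imp arm (50% of all genes had it), and of 84 genes higher on day 3 than on day 2, 92.9% did (50.2%). Of 345 genes higher on day 3 than on day 1, 73.3% did (49.8%). For the 236 genes lower on day 3 than on day 1 the share with the same direction was 52.5%, against 50.2% of all genes, while 35 of them (14.8%) were at least 2-fold lower in the imp arm as well, against 1.64% of all genes. Among genes with a mean CPM of at least 50, 38.3% of 81 such genes had the same direction, against 47.3% of all genes, and 14.8% were at least 2-fold lower, against 0.797% of all genes. In the reverse reading, of 97 genes lower on day 3 than on day 1 in the imp arm, 80.4% were lower in the luciferase arm as well, against 51.8% of all genes. Of 134 genes higher on day 3 than on day 1, 89.6% kept their direction (48.2% of all genes had it). Of 194 genes higher on day 3 than on day 2, 68.6% did (50.4%), and of 158 lower ones 72.8% did (49.6%). Of 52 genes higher on day 2 than on day 1, 94.2% did (48.1%), and of 70 lower ones 78.6% did (51.9%). The share thus depended on the arm in which genes were picked.

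In most lists of housekeeping genes the number of calls was too small to set against the 3.33% called among all genes. The joint test called none of 84 cytosolic ribosomal protein genes, 28 proteasome subunit genes, 30 DNA replication genes, 32 genes of mitosis, 12 heat shock genes, 18 genes of ER folding and the unfolded protein response, 17 of glycolysis and hypoxia, 13 of the ATF4 pathway and amino acid synthesis, 22 of ribosome biogenesis, 21 tRNA synthetase genes, 13 of RNAi and antiviral defence, 6 of dosage compensation and 10 mitochondrially encoded genes, and most of these lists are so short that the share of all genes would give 1 call or none. The imp library of day 2 stood apart in its mitochondrially encoded counts, at 0.661% of its total against 1.06 to 1.34% in the other 5 libraries, and the median log2 difference of the 10 genes on day 2 was -0.99 in the imp and 0.193 in the luciferase arm. With edgeR each of these lists held 0 to 4 genes at an unadjusted p under 0.05, limma-voom called 0 of their genes, and DESeq2 called 1, in the ER list. Among genes of mitosis CycB3 was lower on day 3 (log2 -1.06 ± 0.25, adjusted p = 0.031), a call lost without the imp library of day 2 or any 1 of the 3 luciferase libraries (adjusted p = 0.133 without that of day 3). Cytosolic ribosomal protein genes had a negative median on day 2 in both arms (-0.465 in the imp and -0.409 in the luciferase arm), whereas the signs of their medians on days 1 and 3 differed between the arms. Their median log2 difference in the fit was 0.293 on day 1, -0.448 on day 2 and 0.182 on day 3, and the summed level was 171500, 145500 and 236600 CPM in the imp libraries of days 1, 2 and 3 and 237700, 150000 and 162200 CPM in the luciferase libraries. The imp library of day 3 and the luciferase library of day 1 were thus the high ones. RpL32, for example, had 1813, 1554 and 2626 CPM in the imp libraries and 3181, 1629 and 1854 CPM in the luciferase libraries. Day 2 was the lowest in either arm, and 83 of the 84 genes had a negative day 2 difference.

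**Figure D5:**
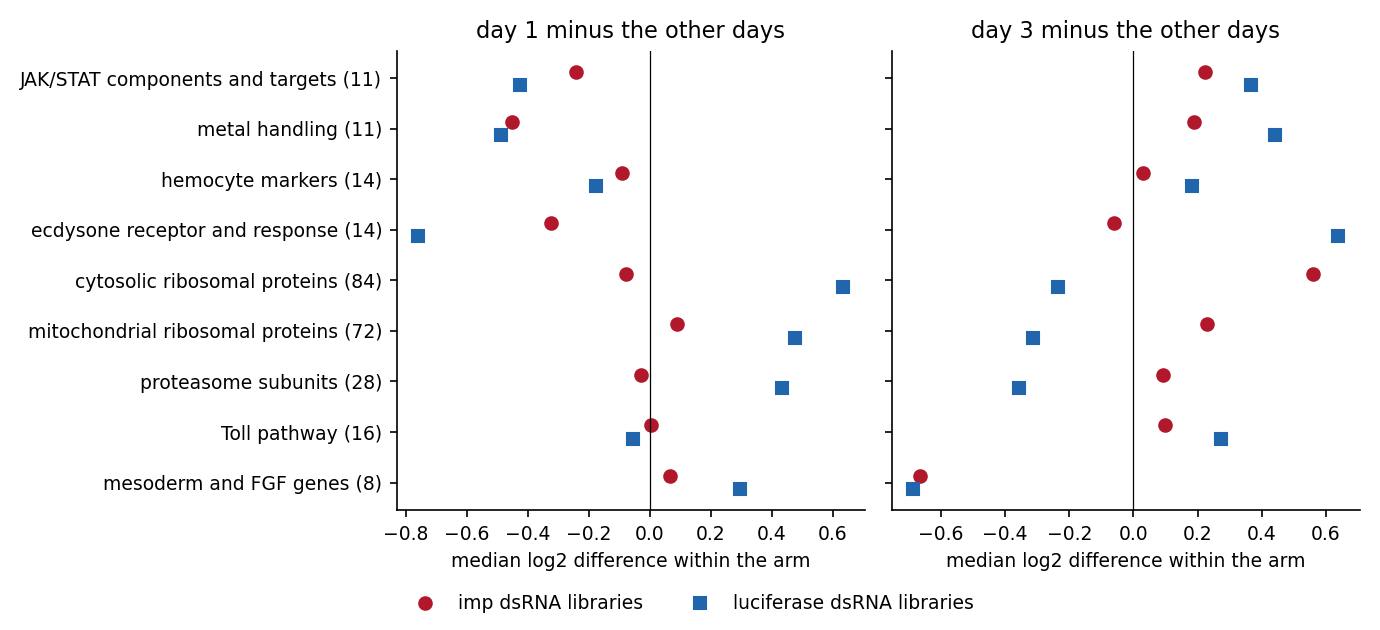
Median log2 difference of 1 day minus the mean of the other days within each arm (x axis), for 9 gene lists with the number of tested genes in brackets. Red circles are the imp libraries and blue squares the luciferase libraries. On day 3 mesoderm and FGF genes are low in both arms (-0.665 and -0.686), whereas cytosolic ribosomal protein genes are high in the imp arm (0.558) and low in the luciferase arm (-0.235).

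By chromosome arm, the joint test called between 2.69% (X, 30 of 1115 genes) and 3.66% (2L, 41 of 1121) of the genes on the large arms, and 6 of 49 genes (12.2%) on chromosome 4, where the median log2 difference was -0.337 on day 1 and 0.27 on day 3. Among them, zfh2, which encodes a zinc finger homeodomain protein, had 215, 491 and 390 CPM in the imp libraries of days 1, 2 and 3 and 143, 466 and 673 CPM in the luciferase libraries, lowest on day 1 in either arm (log2 -1.48 ± 0.25, adjusted p = 0.0061). Its call was lost without the luciferase library of day 1 (adjusted p = 0.211). CG1674 had 9.56, 11.7 and 32.2 CPM in the imp libraries and 4.36, 14.1 and 52 CPM in the luciferase libraries (log2 2.10 ± 0.31 for day 3, adjusted p = 0.0014).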

How the data were processed

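RNA-seq libraries of 6 S2 cultures were used, 3 treated with imp dsRNA and 3 with luciferase dsRNA, and the other 10 samples of the series were not analysed here. The supplementary methods place the triplicates on different days, and the replicate number was taken as the day. Per the labels and methods, the authors called bases with CASAVA 1.8.2, mapped reads with BWA-PSSM to the dm3 genome together with yeast, and deposited unnormalized counts of reads that overlapped exactly 1 gene on the same strand. No source used here gives the versions of BWA-PSSM and DESeq or says whether the random barcodes were collapsed. The deposited table of the authors' comparison holds fold changes and p-values, and only its gene symbols were used. No other column of values per sample was left out (0 columns).

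The count table covered 9977 genes. A further row carries a label that is not a gene and 0% of counts, and was left out. Symbols came from the deposited table for 9596 genes and from the reference for 367, and 9546 identifiers were in the BDGP6 annotation, from which only names, arms, neighbours and exonic lengths were taken. Genes were kept by filterByExpr (edgeR 4.0.16 in R 4.3.3), leaving 6634. Libraries were scaled by TMM, a quasi-likelihood model with dsRNA and day was fitted, and p-values were adjusted by Benjamini-Hochberg over all genes tested. Calls needed an adjusted p under 0.05. Each contrast was 1 day minus the mean of the other days, or the day named first minus the day it was set against, and fold changes are in log2, with a standard error taken as the change over the square root of its F statistic. The scripts were tested on simulated data. Same-numbered libraries deviated together after the treatment means were removed (r across genes of 0.481, 0.368 and 0.339, against -0.537 to 0.0836 for other pairs), and genes are not independent replicates. Alternatives were DESeq2 1.42.0, limma-voom (limma 3.58.1), other scalings, filters, thresholds and designs, thinning to the shallowest library, leaving out libraries, and offsets for exonic length, the last added after the data were seen.

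The genes named for each contrast were, in each direction, the 8 with the largest change among those called, with an average log2 CPM of at least 3 and both libraries of the day beyond the other 4, or, where fewer than 3 qualified, the 3 with the smallest p. In each list the members with the smallest joint p were named, and members set beside them that were not called were chosen after their values were seen. The days, lists and named genes were chosen with earlier results of these data known.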

Additional observations from a re-analysis of the deposited data

Results flagged for a closer look

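In several gene lists the median had opposite signs in the imp and the luciferase arm when 1 day was set against the mean of the other days within each dsRNA arm. With 1 library per day and arm, these differences between the arms were not tested. They concerned 7 of 18 list medians examined and 0 of the named genes. The cytosolic ribosomal protein genes had a median log2 difference of -0.0776 in the imp arm and 0.635 in the luciferase arm on day 1, and of 0.558 in the imp arm and -0.235 in the luciferase arm on day 3. The proteasome subunit genes had -0.0289 (imp) and 0.434 (luciferase) on day 1, and 0.0929 (imp) and -0.358 (luciferase) on day 3. The mitochondrial ribosomal protein genes had 0.23 (imp) and -0.314 (luciferase) on day 3. The ecdysone receptor and response genes had -0.0604 (imp) and 0.639 (luciferase) on day 3. The Toll pathway genes had 0.00255 (imp) and -0.0565 (luciferase) on day 1, both close to 0.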

How the results depend on the processing

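Of 83 values of named genes, 75 were called. Of these 75, 49 kept their call under every alternative in which they were tested, and 26 lost it under 1 or more. With at least 10 counts in every library, 58 of the 83 values were tested. Genes with low counts, TotM, Sr-CI and eater among them, were filtered out there, which was not counted as a lost call. The values not called, 8 in number, each gained a call under 1 or more, and 0 of the 83 reversed. Many of the named genes were picked from these same data for a large change, so these counts are not a test of stability. Without leaving out a library, calls were lost most often with DESeq2 (17 of 83) and after thinning to the shallowest library (11 of 80). Calls lost with DESeq2 included those of Myd88, Tsf1, GstD5, Npc2a, proPO-A1, kirre, CycB3, Vha68-1, CG42675, CG7794 and grk. They also included those of mRpL48, Pvf1, chrb, vri and, on day 1, rpr. With offsets for exonic length mRpL48 and vri lost theirs.

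The joint test called 512 genes without a filter on low counts, 138 with at least 10 counts in every library and 97 at an adjusted p under 0.01. For day 1 the counts were 269 without the dsRNA covariate, 455 without a filter, 114 with at least 10 counts and 58 at 0.01. For day 2 they were 2 without the covariate, 44 without a filter, 2 with DESeq2, 3 after thinning and 1 with length offsets. For day 3 they were 144 with at least 10 counts, 149 with DESeq2 and 130 at 0.01. Day 2 against day 1 gave 57 without the covariate, 8 with DESeq2 size factors or upper-quartile scaling, 206 without a filter, 3 with at least 10 counts, 29 with DESeq2, 5 with limma-voom, 11 with length offsets and 3 at 0.01. Day 3 against day 1 gave 449 without a filter and 145 at 0.01. Day 3 against day 2 gave 104 without the covariate, 155 without a filter, 40 with at least 10 counts and 31 at 0.01. Leaving out libraries gave 145 to 1346 calls jointly, 43 to 1598 for day 1, 0 to 865 for day 2, 156 to 635 for day 3, 3 to 863 for day 2 against day 1, 135 to 1242 for day 3 against day 1 and 21 to 601 for day 3 against day 2. The cause of these shifts was not tested.

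Without the replicate block, which here is the day itself, the biological coefficient of variation was 0.216, against 0.157 with it. The share of day differences that kept their direction in the other arm was 78% when genes were picked in the imp arm, against 74.9% when they were picked in the luciferase arm. With 2 libraries a day and 2 residual degrees of freedom, 1 when a library was left out, small differences were not detectable, and the imp library of day 2, at 1081882 counts, was the shallowest.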

Other observations

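Some further genes that the day contrasts called, chosen after their values were seen, encode secreted or signalling proteins. The C-type lectin gene lectin-28C had 17.7, 47 and 69.8 CPM in the imp libraries of days 1, 2 and 3 and 8.35, 21.3 and 36.4 CPM in the luciferase libraries, so that in either arm day 3 was the highest and day 1 the lowest (log2 1.36 ± 0.21 for day 3, adjusted p = 0.002 in edgeR). Pvf1, a ligand of the PDGF and VEGF receptor of flies, had 38.8, 35.2 and 14.1 CPM in the imp libraries and 36.3, 20.9 and 15.1 CPM in the luciferase libraries (log2 -1.09 ± 0.28 for day 3, adjusted p = 0.047). Its call was lost without the imp library of day 2 (log2 -0.942) or of day 3, or the luciferase library of day 1. With every library kept it was lost with DESeq2, limma-voom and DESeq2 size factors (adjusted p of 0.169, 0.0669 and 0.0525). It was also lost with at least 10 counts in every library and after thinning to the shallowest library (adjusted p of 0.0679 and 0.0683). The gene chrb, which encodes an inhibitor of TOR signalling, had 72.3, 75 and 29.8 CPM in the imp libraries and 57, 73.5 and 38.9 CPM in the luciferase libraries (log2 -0.99 ± 0.22 for day 3, adjusted p = 0.022). Both day 3 libraries were below the other 4, and the call was lost without the luciferase library of day 2 (log2 -0.9975). The call of chrb was also lost with DESeq2 (adjusted p = 0.0537) and after thinning to the shallowest library (adjusted p = 0.0582).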
